A study of Mus musculus with 6 samples.

Results

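The mast cell and basophil effector genes examined here are Cma1, Cpa3, Kit, Hdc, Mcpt8, Tph1 and Il1rl1, 7 genes taken by name, with all probe sets that the platform annotation gives to each of them alone. Of these, 6 genes had 8 probe sets, among 18193 genes and 34945 probe sets with exactly 1 symbol on the array. Il1rl1 was not analysed here. Cells of the Ba/F3 line, a mouse pro-B line that depends on interleukin 3, had been given a retroviral doxycycline-inducible system for NCOR1-LYN, which joins a nuclear receptor corepressor to the SRC family tyrosine kinase LYN. The arrays compared 3 samples given doxycycline, which expressed NCOR1-LYN per the labels, with 3 uninduced control samples, each on 1 Affymetrix 3′ array. All 6 samples came from 1 cell line, and no doxycycline dose, exposure time or clone is given in the sources used here. Doxycycline was given to every NCOR1-LYN sample and to no control sample, so the drug and the fusion cannot be told apart. The samples were triplicate cultures, with nothing more stated on their independence, so p-values cover only the spread among the arrays, part of which may be technical.

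Mast cells and basophils are myeloid cells that carry granules of proteases and amines and empty them when receptors for IgE are engaged. Their granule proteases include chymases, tryptases and carboxypeptidase A3, stored on the proteoglycan serglycin, and their amines are histamine and, in rodent mast cells, serotonin. Mast cells need KIT, the receptor for stem cell factor, throughout life. Mature basophils carry little KIT and respond to interleukin 3, the cytokine on which Ba/F3 cells grow.

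Cma1 encodes the chymase known as mouse mast cell protease 5 and Mcpt8 a protease that marks mouse basophils. Both lie on chromosome 14 in a run of related serine protease genes that ends with Gzmb, the gene of granzyme B. The promoters of these 3 genes are shown because Cma1 was the member whose mean lay above the filter on dim genes used for testing, Mcpt8 the other member of this locus, and Gzmb the only other gene of the locus above that filter. The sequences are those of RefSeq on build GRCm38.p6, read 5′ to 3′ on the minus strand, from 250 bases before to 50 bases after the annotated start. They cover chr14:55944626-55944925 for Cma1, chr14:56085148-56085447 for Mcpt8 and chr14:56262285-56262584 for Gzmb. Capitals mark GATAA, the core bound by GATA factors, on either strand.
Cma1: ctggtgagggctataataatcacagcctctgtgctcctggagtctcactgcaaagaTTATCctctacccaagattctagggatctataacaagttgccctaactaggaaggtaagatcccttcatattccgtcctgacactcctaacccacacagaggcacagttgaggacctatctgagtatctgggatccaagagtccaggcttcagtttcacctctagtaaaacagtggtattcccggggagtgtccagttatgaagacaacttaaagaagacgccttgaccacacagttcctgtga
Mcpt8: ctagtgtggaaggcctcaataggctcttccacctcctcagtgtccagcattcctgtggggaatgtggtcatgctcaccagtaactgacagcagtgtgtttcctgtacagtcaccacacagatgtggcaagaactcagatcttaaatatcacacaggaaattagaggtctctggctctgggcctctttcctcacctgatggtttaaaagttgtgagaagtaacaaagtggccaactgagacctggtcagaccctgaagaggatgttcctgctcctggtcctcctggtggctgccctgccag
Gzmb: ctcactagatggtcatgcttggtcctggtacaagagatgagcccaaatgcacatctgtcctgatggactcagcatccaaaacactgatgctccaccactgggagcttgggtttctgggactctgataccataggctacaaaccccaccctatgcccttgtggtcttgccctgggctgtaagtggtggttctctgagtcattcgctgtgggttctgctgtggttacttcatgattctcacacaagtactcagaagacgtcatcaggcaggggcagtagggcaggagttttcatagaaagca
The Cma1 promoter held 1 GATAA, on the opposite strand and 194 bases upstream of the start, while the windows of Mcpt8 and Gzmb held none. Over the 10 annotated start sites of the 7 genes, 4 windows held GATAA, namely those of Cma1, Cpa3 and both starts of Il1rl1, against 25.4% of all 32851 windows of this length. The E-box CANNTG, a motif read by MITF and other basic helix-loop-helix factors, stood in 9 of the 10 windows and in 72.3% of all. Both windows of Kit overlap each other and share the same E-box, which is counted in each. The STAT motif TTCNNNGAA stood in 0 of the 10 windows and in 8.3% of all, and the Gzmb window held 1. GATAA was searched on both strands, CANNTG and TTCNNNGAA read the same on both, and motifs were allowed to overlap. A match is a run of letters and not a site shown to be bound.

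Values are MAS5 signals, a linear measure of brightness that the authors scaled to the same trimmed mean of 500 on every array. Median signals of the arrays ran from 54.8 to 61.9. Signals of different probe sets cannot be ranked against each other, because probes differ in how well they bind, so levels are compared between samples within a probe set. Differences are given on log2(signal + 64), where the offset of 64 keeps noise at low signals from dominating and makes changes of dim genes look smaller. A gene entered the test, by its brightest probe set, when its mean on that scale lay above the 40th percentile of all genes, which corresponds to a signal of about 47.0. Replicate 1 stood apart in both groups. Its deviations from the group means, across genes, correlated at 0.62 between the groups and at −0.57 to −0.48 with those of the other numbers in the other group. For this reason differences are also given within pairs of the same number and the test was repeated with the replicate number as a block.

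The chymase gene Cma1 was lower with NCOR1-LYN and was the only one of the 6 genes above the filter. Its signals were 80.5, 5.74 and 52.4 in NCOR1-LYN replicates 1, 2 and 3, against 615, 190 and 186 in control replicates 1, 2 and 3. The groups did not overlap, and replicate 1 was the highest of its group in both. The means were 46.2 ± 37.7 with NCOR1-LYN and 330 ± 246 in controls (SD, n = 3 each). The NCOR1-LYN mean alone lies under the filter, so Cma1 entered the test through its control arrays. The log2 fold change was −1.73 ± 0.44 (SE), and the differences within pairs 1, 2 and 3 were −2.23, −1.86 and −1.10.

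In limma without a block Cma1 did not pass (unadjusted p = 0.00504, adjusted p = 0.534 over 10916 genes), where 9 genes, 0.0824% of those tested, passed an adjusted p of 0.05. With the replicate block Cma1 was called lower, with an SE of 0.23 and an adjusted p of 0.0281 in limma, among 90 genes or 0.824% of those tested. In simulated data with 200 changed genes, the blocked fit made 18.3 false calls among 216.5 on average over 10 runs. The fall of Cma1 was the fifth by size of the 61 genes called lower with the block. Fitted over 20967 probe sets in place of genes, the adjusted p in limma was 0.643 without the block, where 0.0334% of probe sets passed, and 0.0246 with it, where 0.725% passed. An exact permutation test gave a two-sided p of 0.1, the smallest that 3 against 3 arrays allow. The blocked call was lost without both replicate 2 arrays (−1.67, adjusted p = 0.325 in limma) and when genes of every signal were tested (adjusted p = 0.102 in limma). The size depends on the offset, at −2.50 with an offset of 16 and −0.89 with one of 256. The direction cannot change with the offset, because the groups do not overlap.

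**Figure D1:**
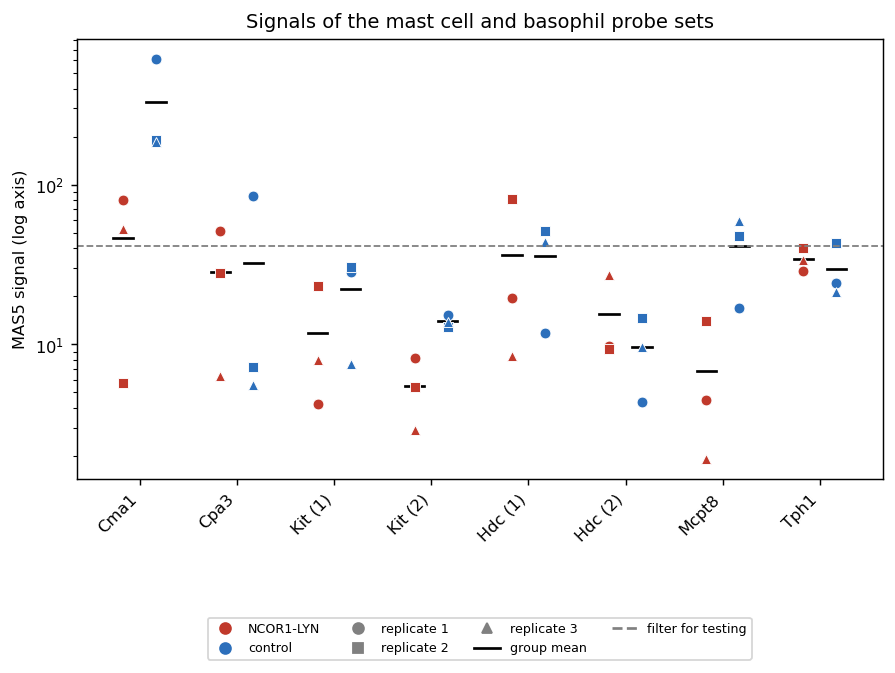
MAS5 signal on a log axis for the 8 probe sets of 6 genes, with NCOR1-LYN in red to the left of control in blue, 1 point per array, its shape giving the replicate, and a bar for the group mean (n = 3). The dashed line is the filter for probe sets, a signal of about 41.6. Cma1 has control points at 186 and above and NCOR1-LYN points at 80.5 and below, while the means of the other 7 probe sets lie at or under the line.

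The second protease of the locus, Mcpt8, was dim in every array. Its signals were 4.50, 14.1 and 1.91 in NCOR1-LYN replicates 1, 2 and 3, against 16.8, 47.6 and 59.4 in control replicates 1, 2 and 3. The groups did not overlap, with the highest NCOR1-LYN array just under the lowest control array. The log2 difference was −0.55 ± 0.17 (SE), with pairs 1, 2 and 3 at −0.24, −0.52 and −0.90. Mcpt8 lay below the filter and was not in the test. In the limma fit to genes of every signal it had an unadjusted p of 0.0134 and an adjusted p of 0.763 without the block, and 0.0116 and 0.407 with it. In those fits 0.0055% of genes passed without and 0.0879% with the block. Its difference was −1.28 with an offset of 16 and −0.18 with one of 256.

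Carboxypeptidase A3, encoded by Cpa3, trims peptides in mast cell granules together with the chymase of Cma1. Cpa3 had signals of 51.5, 27.9 and 6.36 in NCOR1-LYN replicates 1, 2 and 3, against 84.4, 7.18 and 5.56 in control replicates 1, 2 and 3. The groups overlapped, and replicate 1 was the highest of its group in both, as for Cma1. The log2 difference was 0.01 ± 0.32 (SE), with pairs at −0.36, 0.37 and 0.02, so the pairs did not share a direction.

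Kit, which encodes the receptor for stem cell factor, had 2 probe sets, both below the filter. The first had signals of 4.26, 23.1 and 7.96 in NCOR1-LYN replicates 1, 2 and 3, against 28.2, 30.5 and 7.50 in control replicates 1, 2 and 3, with overlapping groups and a log2 difference of −0.18 ± 0.15 (SE). The second had 8.23, 5.40 and 2.93 with NCOR1-LYN, against 15.4, 12.8 and 13.8 in controls. In the second probe set the groups did not overlap, and the log2 difference was −0.17 ± 0.07 (SE). Neither probe set passed in the limma fit to probe sets of every signal, with adjusted p of 0.720 and 0.637 with the block. Both probe sets were dim in controls as well.

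The enzymes that make the amines of the granules were dim too. Hdc encodes histidine decarboxylase, the only enzyme that makes histamine, and its brighter probe set had 19.4, 80.8 and 8.51 in NCOR1-LYN replicates 1, 2 and 3, against 11.8, 51.2 and 43.6 in control replicates 1, 2 and 3. The log2 difference was −0.03 ± 0.28 (SE), with pairs at 0.14, 0.33 and −0.57, and the second Hdc probe set had 0.11 ± 0.11 (SE). Tph1 encodes tryptophan hydroxylase 1, which makes the first intermediate of serotonin outside the brain. Its signals were 28.7, 39.8 and 33.6 with NCOR1-LYN, against 24.2, 43.1 and 21.4 in controls, with a log2 difference of 0.07 ± 0.13 (SE). For both genes the groups overlapped in every probe set.

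Across the 8 probe sets, 3 had groups that did not overlap, and all 3 were lower with NCOR1-LYN (Cma1, Mcpt8 and the second Kit probe set). Of all 34945 probe sets with 1 symbol, 5.13% lay lower without overlap. The same 3 probe sets were lower in all 3 pairs, as were 15.4% of all probe sets, and 0 of the 8 were higher in all 3. The 7 dim probe sets of 5 genes ranged from 1.91 to 84.4 in single arrays. Probe sets of marker genes of other lineages gave signals of similar size, from 4.37 to 98.0 for 5 T and NK cell genes and from 1.19 to 89.5 for 5 fibroblast genes. Differences among such signals are open to noise, and no detection calls were used here.

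**Figure D2:**
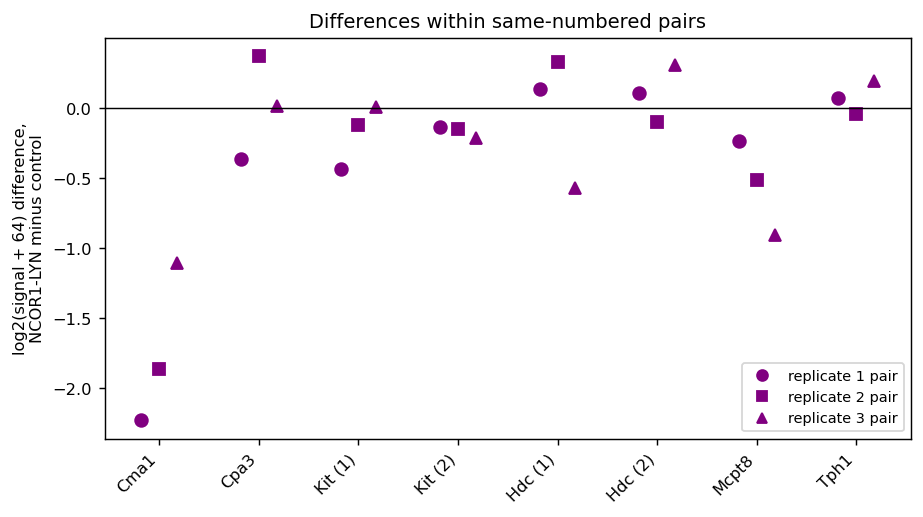
Differences in log2(signal + 64), NCOR1-LYN minus control, within the 3 pairs of the same replicate number, for each of the 8 probe sets, the shape giving the pair. Cma1 lies between −2.23 and −1.10 and Mcpt8 between −0.90 and −0.24, while Cpa3, Tph1 and both Hdc probe sets have pairs on either side of 0.

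Neighbours of Cma1 and Mcpt8 were examined because the locus holds most mouse chymases and several granzymes. This choice was made after their values were seen. Of 15 protein-coding genes from Cma1 to Gzmb, 13 had a probe set of their own, and those between the ends stayed between 0.30 and 59.4 in all arrays. Of these probe sets, those of Cma1 and Gzmb at the ends of the locus had a mean over the 6 arrays above the filter. Gzmb had 2668, 526 and 502 in NCOR1-LYN replicates 1, 2 and 3, against 6539, 674 and 645 in control replicates 1, 2 and 3. Replicate 1 was far above replicates 2 and 3 in both groups, and the groups overlapped. The log2 fold change of Gzmb was −0.64 ± 0.96 (SE), with pairs at −1.27, −0.32 and −0.32, and it passed in limma neither without the block (adjusted p = 0.999) nor with it (adjusted p = 0.277). The mast cell chymase genes Mcpt1, Mcpt2 and Mcpt4 had pairs on both sides of 0. Granzyme genes of this locus are close copies of each other, so their probes can share signal.

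**Figure D3:**
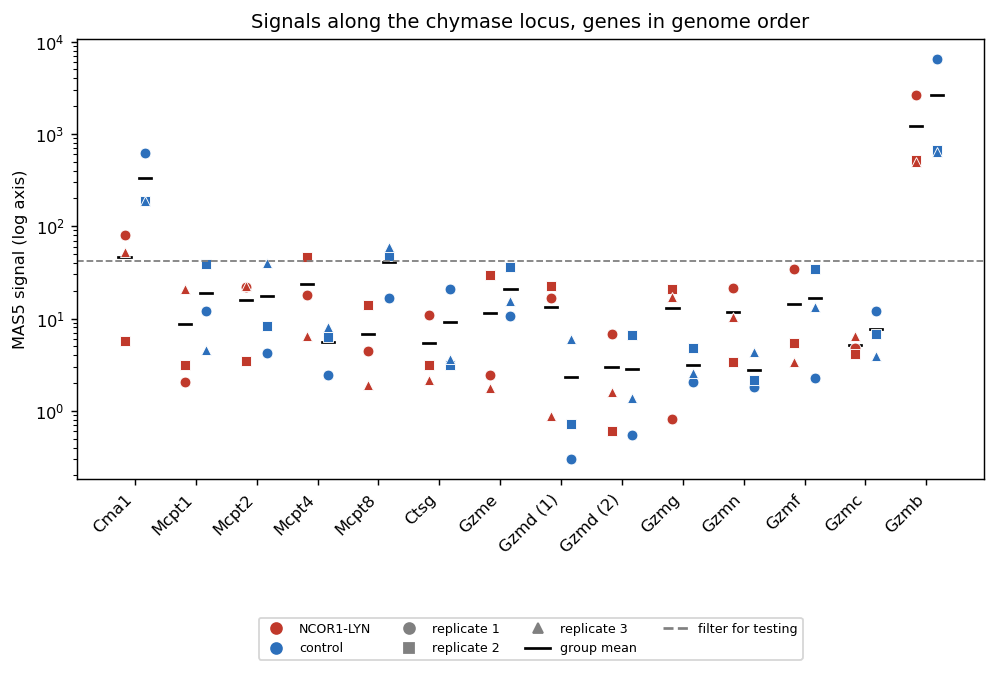
MAS5 signal on a log axis for the 14 probe sets of the locus in genome order from Cma1 to Gzmb, NCOR1-LYN in red to the left of control in blue, with a bar for the mean (n = 3) and the filter as a dashed line. Gzmb stands above the line in all 6 arrays, and Cma1 in every control array and in NCOR1-LYN replicates 1 and 3. The 12 probe sets between Cma1 and Gzmb have means under the line.

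Genes of the wider mast cell and basophil programme gave 0 calls in 7 lists, without or with the block in limma, where 9 and 90 of all genes passed. Of their 59 genes above the filter, 6 had an unadjusted p under 0.05 without and 14 with the block, where 4.75% and 11.3% of all genes did. Of the list of granule proteases and their proteoglycan, 3 of 10 genes on the array lay above the filter, namely Srgn, Ndst2 and Gzmb. Their median log2 fold change was −0.03, against −0.01 for all 10916 genes tested. Only Gzmb of these encodes a protease, so the median says nothing of the other proteases of the list, which lay below the filter. The tryptase genes Tpsb2, Tpsab1 and Tpsg1, chosen after their values were seen, had means below the filter, with Tpsg1 reaching 53.0 in control replicate 2. Srgn, which encodes the serglycin core that holds granule proteases, was bright and close in both groups, at 22050, 20452 and 22529 in NCOR1-LYN replicates 1, 2 and 3, against 22295, 22516 and 21409 in control replicates 1, 2 and 3 (chosen after its values were seen). Genes of amine synthesis, storage and breakdown had 8 of 14 above the filter and a median of −0.02. The vesicular monoamine transporter gene Slc18a2, which loads histamine and serotonin into granules, had 12767, 11982 and 11157 with NCOR1-LYN, against 14539, 9520 and 9290 in controls (chosen after its values were seen). Gch1, which makes the cofactor of tryptophan hydroxylase, had the largest change of this list, with pairs at 1.79, −0.11 and −0.01, so its size came from the replicate 1 pair.

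The signalling genes downstream of KIT and of the receptor for interleukin 33 were mostly bright. Of 17 KIT signalling genes 16 lay above the filter, 9 with positive and 7 with negative fold changes (median 0.02). Lat2, an adaptor that links KIT and the IgE receptor to phospholipase C, had the largest, −0.79 ± 0.31 (SE), and did not pass (adjusted p = 0.979 without and 0.329 with the block in limma). Its pairs were −1.72, −0.41 and −0.24. Of 11 interleukin 33 receptor signalling genes 10 lay above the filter (4 positive, 6 negative, median −0.05). Irak3, an inhibitor of this pathway, had the largest change, with pairs at −1.23, −0.11 and −0.04. Eicosanoid synthesis genes, which make the leukotrienes and prostaglandins that mast cells release, had 6 of 9 above the filter and a median of −0.04. Alox5ap, the partner of 5-lipoxygenase, had −0.53 ± 0.17 (SE) and did not pass (adjusted p = 0.718 without and 0.239 with the block in limma).

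Among surface genes of mast cells and basophils, 6 of 12 lay above the filter (4 positive, 2 negative, median 0.22). Fcer1a, which encodes the IgE-binding chain of the high-affinity IgE receptor, had 1596, 4386 and 3721 in NCOR1-LYN replicates 1, 2 and 3, against 975, 388 and 341 in control replicates 1, 2 and 3. The groups did not overlap, and every NCOR1-LYN array stood above every control array. The share of all probe sets that lay higher without overlap was not computed. Lat2, Alox5ap and Gata2 had groups that did not overlap either, all lower with NCOR1-LYN. The log2 fold change of Fcer1a was 2.40 ± 0.47 (SE), the opposite sign to that of Cma1, with pairs at 0.68, 3.30 and 3.22. It did not pass in limma (adjusted p = 0.260 without and 0.0963 with the block). The genes of the other chains of this receptor had negative fold changes, Fcer1g −0.31 and Ms4a2 −0.17 (chosen after their values were seen). Neither passed in limma, with adjusted p of 0.422 and 0.721 with the block. Of the transcription factor list, 10 of 12 lay above the filter, 5 positive and 5 negative (median 0.04). Gata2, a GATA factor needed for mast cells and basophils, had 6373, 4339 and 5671 with NCOR1-LYN, against 14085, 7775 and 7669 in controls. All Gata2 pairs were negative, at −1.14, −0.83 and −0.43, and the gene did not pass in limma (adjusted p = 0.773 without and 0.0667 with the block). Gata1, another GATA factor of the list, had the opposite sign, with a log2 fold change of 0.41 and pairs at 0.21, 0.36 and 0.64. Gata1 did not pass in limma either (adjusted p = 0.956 without and 0.207 with the block), and was chosen after its values were seen.

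**Figure D4:**
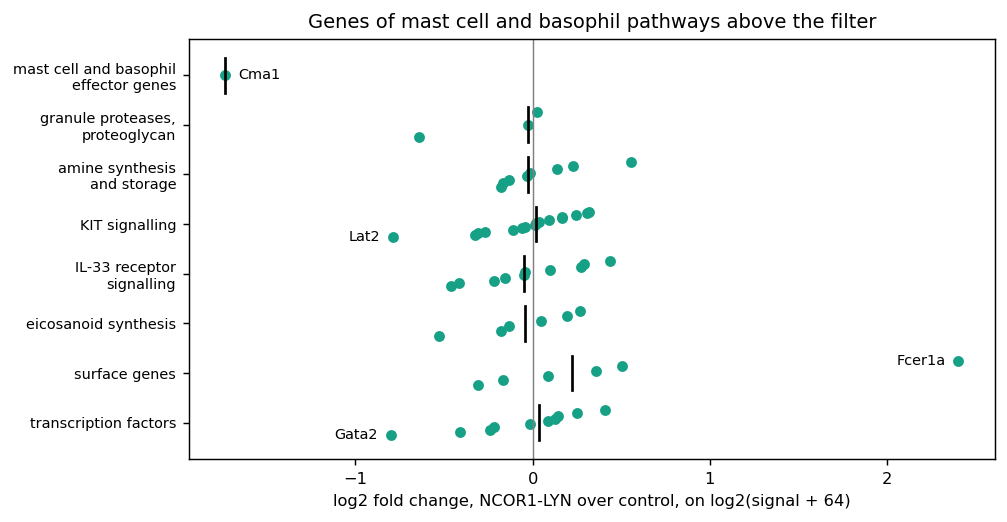
Log2 fold change, NCOR1-LYN over control on log2(signal + 64), of every gene above the filter in the effector genes and in 7 lists of related genes, 1 point per gene spread over the height of its row, with a vertical bar for the list median. Cma1 at −1.73 and Fcer1a at 2.40 lie far from the list medians, which run from −0.05 to 0.22 outside the effector genes.

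By the shape of their values over the 6 arrays, the genes most like Cma1 were Man2a2, which encodes a Golgi mannosidase of N-glycan processing (Pearson r = 0.997), and Zfp652os (r = 0.996). Their log2 fold changes were −0.35 and −0.32, smaller than that of Cma1. With 6 arrays that share the group and replicate differences, 84 genes reached an r above 0.95, so this likeness is a description.

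Markers of other lineages were summed over the brightest probe set of each gene, because the RNA came from whole cultures, where fewer cells of a type and less RNA per cell cannot be told apart. Of 9 neutrophil genes 6 lay above the filter, and the sum ran from 8261 to 10292 with NCOR1-LYN, against 2116 to 2709 in controls. Fold changes were positive for 5 of the 6, and 1 rose in limma, Ltf (2.35 ± 0.19, SE, adjusted p = 0.0175 without and 0.00613 with the block). Of the 6, S100a9 had a negative fold change (−0.23). Below the filter, S100a8 had −0.77, Elane 0.20 and Camp 0.03. Lcn2 was high in NCOR1-LYN replicate 1 alone, at 1457. Bright genes weigh most in the sum, here Ngp and Prtn3, with NCOR1-LYN means of 4439 and 3618 against 822 and 1195 in controls. These genes were named after their values were seen. Prtn3 had pairs at −0.01, 2.14 and 2.34 and its groups overlapped, while all Ngp pairs were positive. Of 6 eosinophil genes 4 lay above the filter, all with positive fold changes, and their sums were 4491 to 5544 with NCOR1-LYN against 1039 to 3505 in controls. Of these 1 rose with the block, Epx (1.59 ± 0.13, SE in the blocked fit, adjusted p = 0.00654 in limma), which had an adjusted p of 0.999 without it. The eosinophil genes below the filter, Ccr3 and Il5ra, had log2 differences of −0.44 and −0.20. The sums of neutrophil and eosinophil markers, though not every gene in them, were higher in the NCOR1-LYN arrays, where Cma1 was lower. The part of these markers in the Cma1 result was not tested. The sums of 11 B lymphoid genes overlapped, at 935 to 1091 with NCOR1-LYN against 976 to 1178 in controls. For a line described as pro-B, Rag1, Ebf1, Cd79a, Blnk, Ms4a1 and Vpreb1 lay below the filter, while Cd79b, Pax5, Igll1, Cd22 and Ighm lay above it. Group means of Pax5, Igll1 and Cd22 ran from 63.7 to 84.4, while single signals of T and NK genes reached 98.0. The sums of 6 erythroid and megakaryocyte genes were 4913 to 9186 with NCOR1-LYN against 6457 to 12718 in controls, and those of 6 macrophage genes 1279 to 1611 with NCOR1-LYN against 1369 to 1591 in controls. The 5 T and NK genes summed to 119 to 135 with NCOR1-LYN against 143 to 195 in controls, and the 5 fibroblast genes to 63.8 to 128 with NCOR1-LYN against 100.2 to 193 in controls. Among genes above the filter, the one with the largest change in each of these lists was Cd22 (0.18), Gp9 (−0.71), Cd68 (−0.67), Cd8a (−0.28) and Col1a2 (−0.49), and none of the 5 passed in limma.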

How the data were processed

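Total RNA of 6 Ba/F3 samples was hybridised to Affymetrix mouse arrays, 1 per sample. The deposited values are linear probe set intensities. Per the submitters' processing notes the authors used MAS5, whose version is not given in the sources used here. From the values, the mean signal of every array is 500, leaving aside the highest and lowest 2% of probe sets. MAS5 subtracts a mismatch signal, which leaves dim probe sets noisy.

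Of 45101 probe sets, the platform annotation gives a single symbol to 34945, several to 932 and none to 9160, and 64 are controls. Through Entrez identifiers 0 symbols changed against GRCm38.p6. Signals were used as log2(signal + 64). Each of 18193 genes was represented by its brightest probe set, and 10916 above the 40th percentile entered limma 3.58.1 under R 4.3.3 (lmFit, eBayes with trend, all 6 arrays, two-sided, Benjamini-Hochberg over all genes), with residual degrees of freedom of 4 without and 2 with the replicate block. The number of arrays limits the precision. The fits were tested on simulated data, where the blocked fit made a larger share of false calls than its threshold aims at and the fit without a block did not.

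Replicate numbers in the labels were checked by correlating, across genes, deviations from group means. Same-numbered arrays gave r of 0.62, 0.41 and 0.44, all over 0.1, so numbers were taken as pairs. Replicates 2 and 3 were not told apart, since crossed matches gave 0.39 and 0.48. Deviations from a mean of 3 arrays sum to 0. With replicate 1 apart in both groups, replicates 2 and 3 therefore tend to correlate positively in any combination. The check thus could not decide how replicates 2 and 3 pair, and for them the pairing rests on the labels.

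The members and lists were chosen with earlier results of these data known. Named genes are all members, of each other list up to 4 past the threshold in either fit or else the one with the largest change, and the 2 genes most correlated with a member. Alternatives were the block, offsets, filters, scaling between arrays, trend, array weights, probe set averaging and arrays left out.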

Additional observations from a re-analysis of the deposited data

How the results depend on the processing

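The log2 fold change of Cma1 was negative in all 20 alternatives with a test, from −2.50 to −0.89, and passed in 5 of them, of which 3 are the block itself or the block with a pair left out. The groups of Cma1 do not overlap, so no offset, array weight or left-out array could reverse this sign. The block on all arrays, the missing filter, the trend and probe set averaging return the main value by construction, as Cma1 has 1 probe set. Under a filter at the 60th percentile Cma1 was not tested. The 5 dim genes were tested only in the settings without a filter. Among them the difference changed sign between alternatives for Cpa3 (−0.18 to 0.37) and Hdc (−0.33 to 0.23). It kept its sign for Kit (−0.45 to −0.05), Mcpt8 (−1.28 to −0.18) and Tph1 (0.01 to 0.17). The block, filter and trend settings leave these differences as they are by construction. The dim genes, below the filter, were not refitted with array weights, so their unweighted differences stand for that setting.

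In limma 0 of the mast cell and basophil genes and 0 of their probe sets passed in the main setting, with 1 of each at an unadjusted p under 0.05. The count was 1 for genes and 1 for probe sets with the replicate block (Cma1, adjusted p = 0.0281), with array weights, without both replicate 1 arrays, and with the replicate block and both replicate 1 or both replicate 3 arrays left out. The last 2 were added after the data were seen. Without any 1 array both counts stayed at 0, and with the block but no filter both were 0 as well. Over all genes the count of 9 became 90 with the replicate block, 1 without the filter, 1 with it at the 60th percentile, 502 with array weights, 744 without both replicate 1 arrays, 0 to 15 without single arrays (345 to 753 at an unadjusted p under 0.05), and, in settings added after the data were seen, 1145, 0 and 23 with the replicate block and both replicate 1, 2 or 3 arrays left out (693 at an unadjusted p under 0.05 for the 0) and 16 with the block and no filter. Fits with a pair left out have 1 residual degree of freedom with the block, so they rest on the spread shared by all genes. The cause of these changes was not tested.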
